A study of Mus musculus with 5 samples.

Results

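The cytoplasmic ribosome of mouse cells carries a set of ribosomal proteins in its large (60S) and small (40S) subunits, and the messages of these proteins are among the most abundant in a dividing cell. The genes were chosen by symbol, as the rows of the deposited gene table named Rpl or Rps with a number, together with Rplp0, Rplp1, Rplp2 and Rpsa, without Rpl10l and the S6 kinase genes. This gave 77 genes of 23951 in the table, 46 of the large and 31 of the small subunit. RNA was sequenced in 5 libraries of mouse pluripotent cells, in a study of bone morphogenetic protein (BMP) signalling in the naive state, represented by embryonic stem cells (ESCs), and in the primed state, represented by epiblast stem cells derived from ESCs (EpiSCs). Each group held 1 library, so no difference could be set against a spread between cultures and no p-value is given.

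All 5 libraries came from the E14 ESC line, which is 1 line. The EpiSCs grew in N2B27 medium with FGF2 at 12 ng/ml and Activin A at 20 ng/ml, on plates coated with serum. The EpiSC libraries were untreated, from cells given BMP-4 at 10 ng/ml over 1.5 h, and from cells given the same dose over 24 h. An ESC library came from cells in leukaemia inhibitory factor (LIF) with BMP-4 at 10 ng/ml in a basal medium, for which no serum and no LIF dose is stated. The other ESC library came from cells in LIF at 1000 U/ml with 15% serum on gelatin. They are called LIF/BMP-4 ESCs and LIF/serum ESCs here. EpiSCs and ESCs therefore differ in medium and growth factors as well as in cell state, and the ESC libraries differ in serum as well as in BMP-4.

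Ribosomal proteins are made in matched amounts, joined to ribosomal RNA in the nucleolus and exported as subunits. Most of their messages begin with a cytidine and a run of pyrimidines, the terminal oligopyrimidine (TOP) motif, through which mTOR and LARP1 set their translation and stability in mammalian cells. A few ribosomal proteins have a second gene, a paralogue, whose message is known from testis, muscle or other particular cells.

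The labels were checked on marker genes. The 8 naive markers were all lower in every EpiSC library than in either ESC library, with summed levels of 4.83, 4.65 and 6.68 FPKM (fragments scaled to transcript length and to the mapped fragments of the library) in untreated, 1.5 h and 24 h EpiSCs, against 1559 FPKM in LIF/BMP-4 ESCs and 1793 FPKM in LIF/serum ESCs. Of the 8 primed markers, 7 were higher in every EpiSC library. Markers of other cells were low: the 4 trophoblast markers summed to 5.07 to 14.9 FPKM in EpiSCs and 0.342 to 0.691 FPKM in ESCs, with Cdx2 at 13.7 FPKM after 24 h and Elf5 at 0 in 4 of the libraries. The 6 primitive endoderm markers summed to 6.33 to 9.05 FPKM in EpiSCs and 1.28 to 1.40 FPKM in ESCs, and Afp was at 0 except for 0.0368 FPKM after 24 h. The 6 fibroblast markers summed to 3.14 to 5.72 FPKM, with Dcn at 0 throughout. The 4 neural markers, which pluripotent cells in part share, summed to 151 to 174 FPKM in EpiSCs and 54.2 to 82.6 FPKM in ESCs, led by Nes in EpiSCs and Tubb3 in ESCs. Nes alone was higher in every EpiSC library than in either ESC library, while Sox1, Pax6 and Tubb3 were lower. The part of any such other cells in the results below was not tested. The estimated depth was 8.51 to 13.4 M reads (M, the mega prefix), and the median distance from a ribosomal protein gene's value to the upper 95% bound deposited with it was about 40.3% to 40.7% of the value.

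The ribosomal protein messages were abundant in all libraries and covered a wide range of levels. Their median was 1147, 1136 and 1097 FPKM in untreated, 1.5 h and 24 h EpiSCs, 1218 FPKM in LIF/BMP-4 ESCs and 1257 FPKM in LIF/serum ESCs. None of the 77 was listed at 0 and all passed the filter of a mean of 1 FPKM, so the whole set entered every comparison. Only 74 to 76 genes of the whole table, members included, lay above the members' median in a library.

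Rps21, Rpl41, Rpl35, Rps12 and Rps18 led the set by mean level. Rps21 (mm9 chromosome 2, 179992084 to 179993149), a protein of the small subunit, stood at 6332, 6839 and 6421 FPKM in untreated, 1.5 h and 24 h EpiSCs, 5333 FPKM in LIF/BMP-4 ESCs and 5458 FPKM in LIF/serum ESCs. Rpl41 (chromosome 10, 127985166 to 127986224), which encodes a very short basic peptide of the large subunit, stood at 6205, 6315 and 5747 FPKM in the EpiSCs, then 5032 and 4677 FPKM in the ESCs in the same order. Rpl35, at the exit of the nascent peptide tunnel, had 5471, 5489 and 5162 FPKM in EpiSCs and 5081 and 4988 FPKM in ESCs. For each of these genes all EpiSC libraries lay above both ESC libraries. Rps12 stood at 5604, 5583 and 5592 FPKM in EpiSCs and 4646 and 4657 FPKM in ESCs. Rps18, in the head of the small subunit, ran the other way, with 4070, 3993 and 3776 FPKM in EpiSCs and 4501 and 4247 FPKM in ESCs.

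At the low end stood Rpl30, Rps15a, Rpl31, Rpl34 and Rpl22. Rpl30, a large subunit protein whose human counterpart also takes part in selenocysteine decoding, had 153, 123 and 145 FPKM in untreated, 1.5 h and 24 h EpiSCs and 107 and 138 FPKM in LIF/BMP-4 and LIF/serum ESCs. Rps15a had 134 to 150 FPKM in EpiSCs and 157 and 167 FPKM in ESCs. The span between the lowest and the highest member was 39.4-fold to 55.5-fold within a library. Some low members share their position with another row. The table lists Rpl30 and the predicted gene Gm12191 at the same position, and Rpl30 held 7.97% to 12.2% of their sum, which was 1251, 1284 and 1226 FPKM in EpiSCs and 1343 and 1329 FPKM in ESCs. In the same way Rpl26 is listed beside Gm15772 and held 12.1% to 13.4% of their sum, and Rpl34 beside Rpl34-ps1. The levels of Rpl26, Rpl30 and Rpl34 are therefore uncertain.

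**Figure D1:**
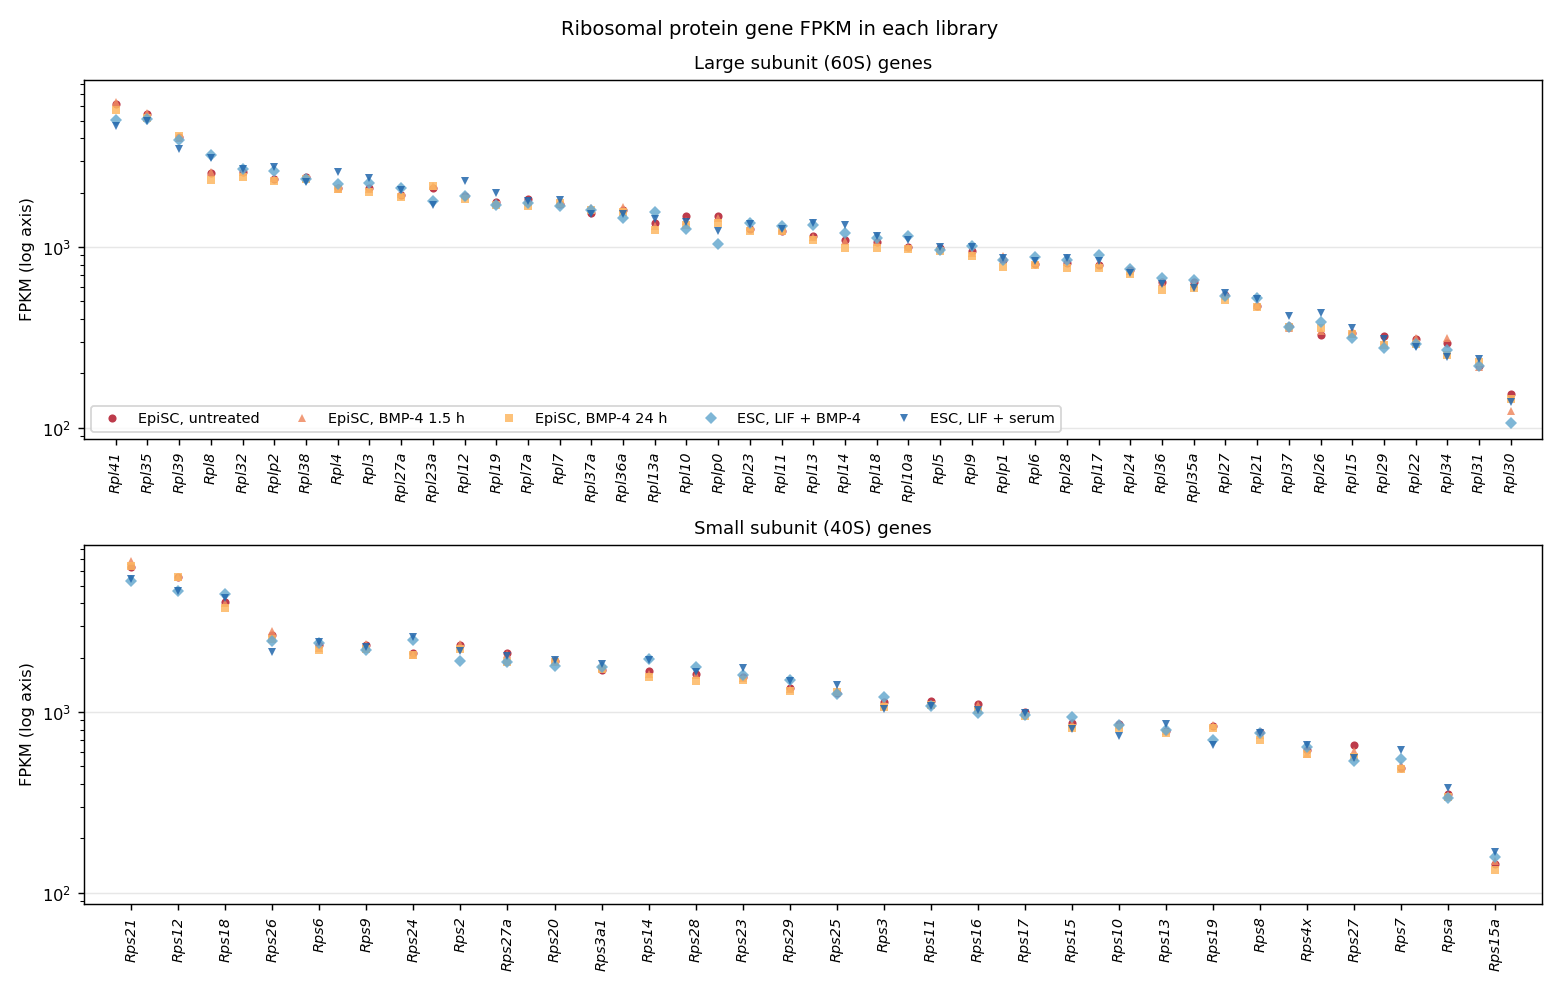
Level of 75 of the 77 ribosomal protein genes in FPKM on a log axis, large subunit genes above and small subunit genes below, ordered by mean level, with 1 symbol per library (red to yellow for the EpiSC libraries, blue for the ESC libraries). The 5 symbols of a gene nearly coincide, from Rps21 and Rpl41 at the top down to Rpl30 and Rps15a at the foot.

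The order of the genes hardly varied between libraries. Spearman's rho between the members' levels of 2 libraries was 0.984 to 0.999 over 77 genes, with the lowest value between 24 h EpiSCs and LIF/serum ESCs. These libraries share the line, the protocol and the gene lengths, and genes are not replicates. Across the genes, the mean level had a rho of -0.03 with coding length and 0.0037 with the share of the message found elsewhere in the annotated transcripts, also descriptions over 77 genes. That share, counted in stretches of 36 bases, had a median of 49.2% and exceeded 50% for 37 genes, so reads of many members could fit processed pseudogenes as well, and how the authors placed such reads is not stated in the labels or headers. It was highest for Rps27, at 98.7%, whose copy Rps27rt is listed at the same position but held at most 2.97 FPKM.

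The start of these genes is shown because the TOP motif is the feature the family is known for. In RefSeq promoters of build GRCm38.p6, 57 of the 77 genes were found. On the transcribed strand, the annotated start base was a C followed by 4 or more C or T in 13 of them (22.8%), against 813 of all 27025 genes (3.01%). A C with 4 or more C or T after it lay within 5 bases of the start on either side in 27 members (47.4%) and in 21.2% of all genes. The windows below hold 15 bases before and 15 from the annotated start, with every run of a C and the 4 or more C or T after it in capitals. They show abundant members with and without the run, and paralogues that return below. The examples were picked after the windows were seen.
Rps21, chr2:180257364-180257393, plus strand: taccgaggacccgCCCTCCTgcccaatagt
Rpl35, chr2:39005117-39005146, minus strand: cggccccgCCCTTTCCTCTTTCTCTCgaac
Rps18, chr17:33955651-33955680, minus strand: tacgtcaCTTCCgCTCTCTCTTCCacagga
Rps27, chr3:90213634-90213663, minus strand: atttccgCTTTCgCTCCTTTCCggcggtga
Rpl14, chr9:120571502-120571531, plus strand: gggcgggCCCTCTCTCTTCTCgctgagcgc
Rplp0, chr5:115559452-115559481, plus strand: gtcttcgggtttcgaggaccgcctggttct
Rpl41, chr10:128549154-128549183, minus strand: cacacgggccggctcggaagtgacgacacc
Rps27l, chr9:66946071-66946100, plus strand: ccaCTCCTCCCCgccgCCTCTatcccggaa
Rpl10l, chr12:66284387-66284416, minus strand: tttggCCTCCattttgcggctggcggtggg
In Rps21, Rpl35, Rps18, Rps27 and Rpl14 the run covers the start itself, while the windows of Rplp0 and Rpl41 hold none. A run is a description of these letters at an annotated start and no measurement of a cap site.

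The set took a large and similar part of each library. Its share of the summed FPKM of all genes was 20.5% ± 1.15, 20.5% ± 1.15 and 19.8% ± 1.12 in untreated, 1.5 h and 24 h EpiSCs, 19.2% ± 1.05 in LIF/BMP-4 ESCs and 18.5% ± 1.00 in LIF/serum ESCs, where the errors are half-widths of the deposited bounds added in quadrature over genes. All 3 EpiSC values lay above both ESC values, and the errors overlapped between untreated EpiSCs and each ESC library. The summed FPKM of the members themselves was 119446, 119796 and 114567 in the EpiSCs, 117196 in LIF/BMP-4 ESCs and 118011 in LIF/serum ESCs. The total over all genes was 583328, 585088 and 579449 FPKM in EpiSCs and 608843 and 638146 FPKM in ESCs. Both ESC totals thus lay above the EpiSC totals, while the 24 h library had the lowest total, member sum and share of the EpiSC libraries. In this bulk RNA, fewer cells of a type and less RNA per cell cannot be told apart.

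The small subunit genes held slightly more of the set in EpiSCs. The ratio of small to large subunit FPKM was 0.790, 0.791 and 0.793 in EpiSCs and 0.769 and 0.770 in ESCs. The large subunit genes took 11.4%, 11.4% and 11.0% of the EpiSC libraries and 10.9% and 10.4% of the ESC libraries. The 10 most abundant members held 35.2% to 35.6% of the members' FPKM in EpiSCs and 33.8% and 32.8% in LIF/BMP-4 and LIF/serum ESCs. No replicate gives an error for these ratios.

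**Figure D2:**
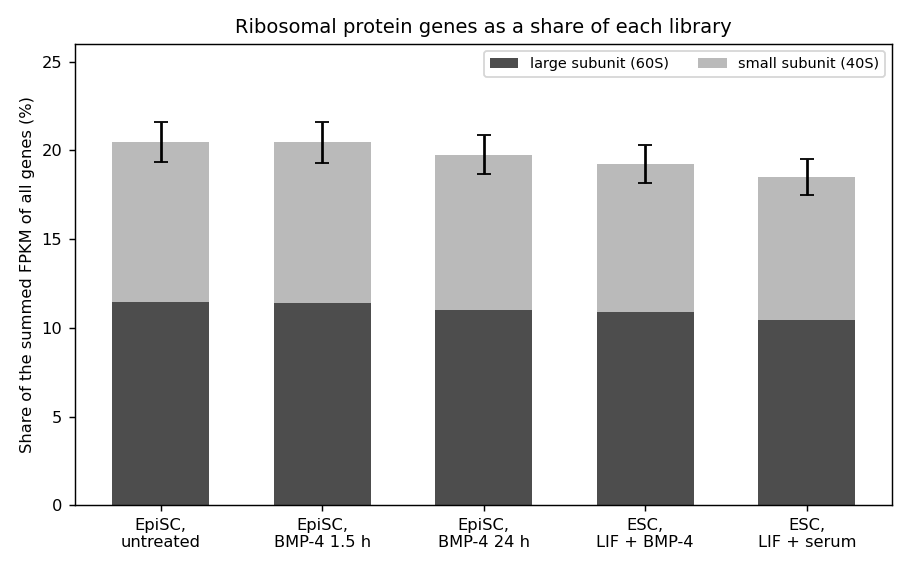
Share of the summed FPKM of all genes, in percent, held by large subunit genes (dark) and small subunit genes (light) in each library. Error bars on the total are half-widths of the deposited 95% bounds added in quadrature, and the totals are 20.5%, 20.5% and 19.8% in EpiSCs and 19.2% and 18.5% in ESCs.

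Untreated EpiSCs were compared with LIF/serum ESCs to set the primed against the naive state. No ribosomal protein gene was 1.5-fold higher or lower in EpiSCs, 0 of 77, while 38.3% of the 11007 genes compared and 23.4% of the other genes averaging 100 FPKM or more were at least 1.5-fold apart. The median difference of log2(FPKM + 1), EpiSC minus ESC, was -0.04 for the members, -0.01 for all genes and -0.12 for the other abundant genes. The members' differences had an SD over genes of 0.18, and 33 of them lay above 0 and 44 below. Deposited bounds were apart for 0 members. Of the 11007 genes compared, 5.53% were both 1.5-fold apart and had bounds apart.

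Within that narrow band, among the most positive differences were those of Rpl41 (0.41), Rps19 (0.35), Rps26 (0.31), Rpl23a (0.31) and Rplp0 (0.28). Rps19, the small subunit protein most often mutated in human Diamond-Blackfan anaemia, stood at 837 FPKM in untreated EpiSCs, against 657 FPKM in LIF/serum ESCs. The most negative were those of Rpl26 (-0.40), Rps7 (-0.34), Rps24 (-0.30), Rpl4 (-0.30), Rpl8 (-0.28) and Rpl12 (-0.28). Rps7, whose human counterpart binds MDM2, stood at 488 FPKM in untreated EpiSCs, against 619 FPKM, and Rpl4 at 2113 FPKM in untreated EpiSCs, against 2595 FPKM. The deposited bounds of all these genes overlapped.

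Against LIF/BMP-4 ESCs, untreated EpiSCs again had 0 of 77 members 1.5-fold apart, with a background of 37.6% of all genes and 19.7% of the other abundant ones, and 5.51% of all genes with bounds apart as well. This comparison shares the untreated EpiSC library with the one above. The members' median difference was -0.01 and their differences ran from -0.34 for Rpl8 to 0.51 for Rpl30. After Rpl30, whose level depends on the split of its locus, stood Rplp0 at 0.50. Rplp0, the base of the ribosomal stalk and a common reference gene, had 1478 FPKM in untreated EpiSCs, against 1045 FPKM in LIF/BMP-4 ESCs. Rpl8, which lies near the peptidyl transferase centre, had 2566 FPKM in untreated EpiSCs, against 3245 FPKM.

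**Figure D3:**
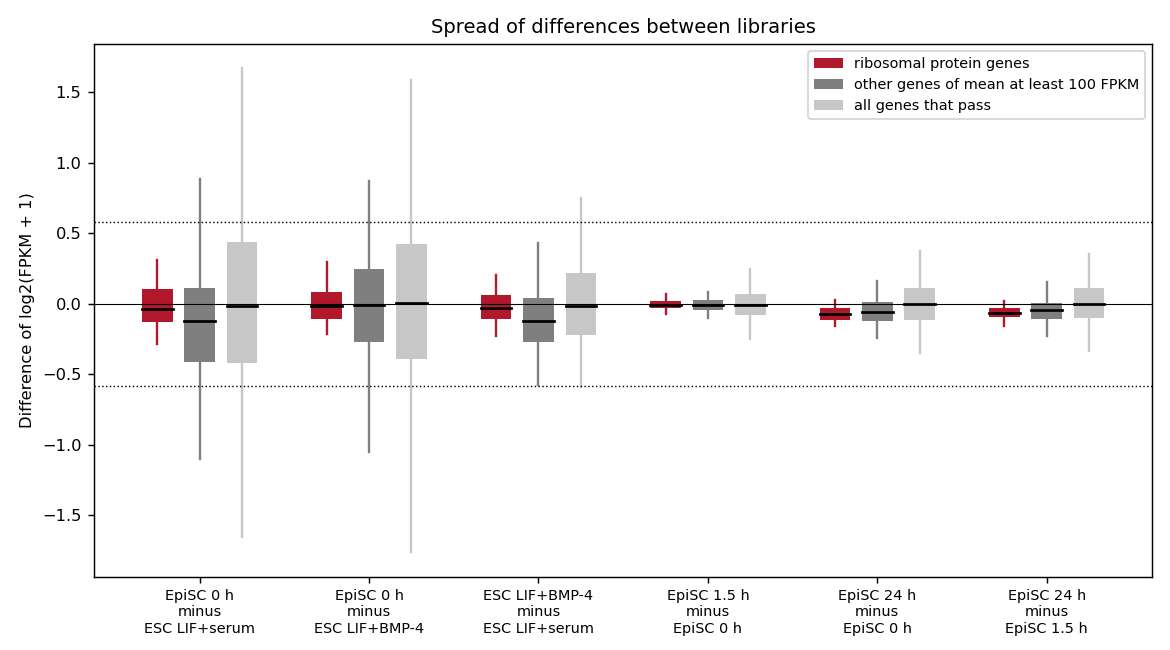
Differences of log2(FPKM + 1) between libraries for 6 comparisons: ribosomal protein genes (red, 77), other genes averaging 100 FPKM or more (dark grey) and all genes that pass the filter (light grey). EpiSC 0 h is the untreated EpiSC library. Boxes span the 25th to 75th percentile over genes, lines the 5th to 95th, black bars the median, and dotted lines mark 1.5-fold. For untreated EpiSCs against LIF/serum ESCs the members' 5th to 95th percentiles run from -0.29 to 0.31, those of all genes from -1.65 to 1.67.

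The 3 EpiSC libraries were also set against the 2 ESC libraries as ranges, without treating them as replicates. In 17 members every EpiSC value lay above both ESC values (34.9% of all genes did so, and 24.3% of the other abundant genes). In 32 members every EpiSC value lay below both ESC values (35.7% of all genes and 40.7% of the other abundant genes), and in the remaining 28 the ranges overlapped. The members' shares, 22.1% above and 41.6% below, were thus close to those of other abundant genes. The 17 were 9 large and 8 small subunit genes, the 32 were 19 large and 13 small subunit genes.

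The sizes were small throughout. The ratio of the EpiSC mean to the ESC mean was highest for Rplp0 at 1.26, Rpl41 at 1.25, Rpl23a at 1.23, Rps19 at 1.22, Rps21 at 1.21 and Rps12 at 1.20. Rpl23a, a docking site for nascent chain factors at the tunnel exit, had 2119, 2171 and 2179 FPKM in EpiSCs and 1805 and 1712 FPKM in ESCs. The ratio was lowest for Rpl8 at 0.784, Rps24 at 0.818, Rps14 at 0.828, Rpl26 at 0.836, Rpl14 at 0.838 and Rps7 at 0.842. Rps24, another gene of human Diamond-Blackfan anaemia, had 2118, 2062 and 2073 FPKM in EpiSCs and 2489 and 2605 FPKM in ESCs. Rps14, the gene of the human 5q deletion syndrome, had 1676, 1621 and 1560 FPKM in EpiSCs and 1959 and 1950 FPKM in ESCs. None of these groups overlapped, yet the deposited bounds of each gene did.

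**Figure D4:**
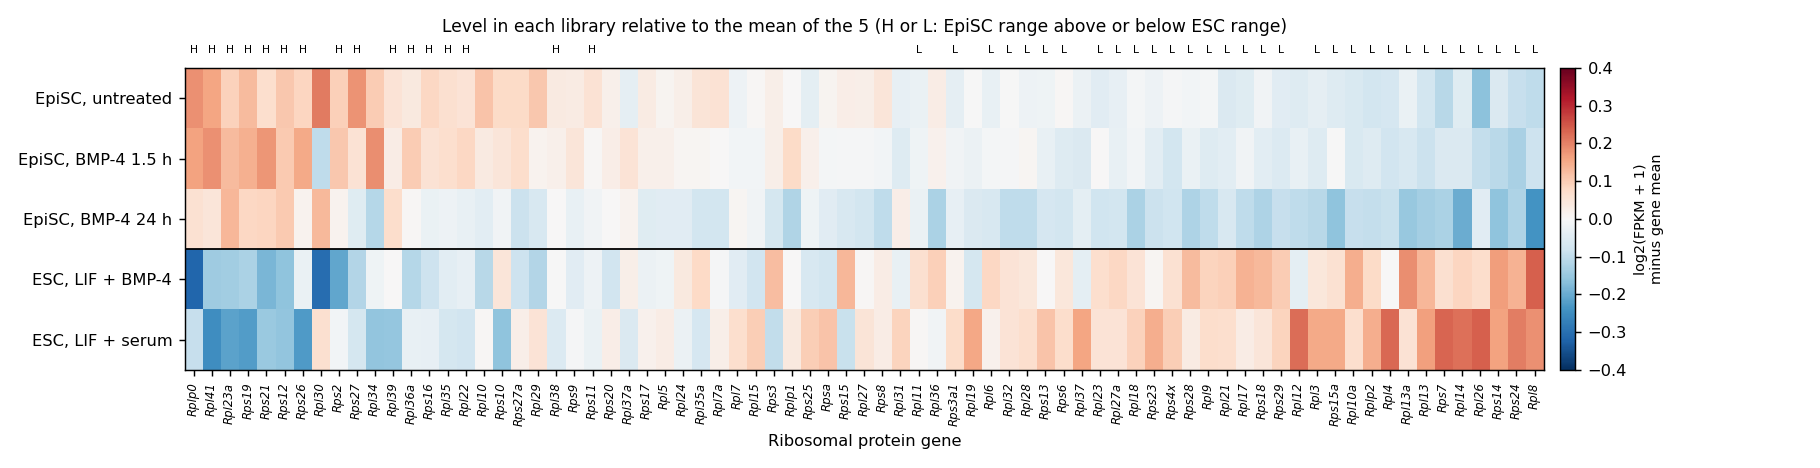
Level of 75 of the ribosomal protein genes in each library as log2(FPKM + 1) minus the gene's mean over the 5 libraries, with the EpiSC libraries above the line and the ESC libraries below it. Genes run from the largest EpiSC excess (Rplp0, ratio of means 1.26) to the largest ESC excess (Rpl8, 0.784), and H or L marks the 16 and 31 of these genes whose EpiSC range lies wholly above or below the ESC range.

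The members' levels varied little over the 5 libraries. Their coefficient of variation had a median of 5.80%, against 13.0% for the other abundant genes and 22.1% for all genes. The other abundant genes were not matched to the members in level and include small RNA rows such as Snord32a and Snord33. Among members the coefficient was lowest for Rpl5 at 2.07% and highest for Rpl8 at 14.1%. Rpl5, which joins the ribosome with 5S RNA and Rpl11, stood at 987, 994 and 950 FPKM in EpiSCs and 968 and 999 FPKM in ESCs, so the ranges overlapped. Rpl11 had 1230, 1237 and 1229 FPKM in EpiSCs and 1308 and 1257 FPKM in ESCs. The ratio of the highest to the lowest library had a median of 1.16 and reached at most 1.43 among members. The ratio of 1.43 was that of Rpl30, whose level depends on the split of its locus.

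The X-linked members are given together, although 4 genes cannot show whether a chromosome's genes moved together. The 4 are Rpl10, Rpl36a, Rpl39 and Rps4x. Rpl10, which is added late to the large subunit, had 1477, 1400 and 1326 FPKM in EpiSCs and 1265 and 1370 FPKM in ESCs. Rpl36a had 1605, 1674 and 1566 FPKM in EpiSCs and 1441 and 1530 FPKM in ESCs. Rpl39, which lines the peptide tunnel, had 4051, 3987 and 4103 FPKM in EpiSCs and 3905 and 3506 FPKM in ESCs. Rps4x ran below the ESC values, with 615, 586 and 583 FPKM in EpiSCs and 643 and 661 FPKM in ESCs. The median difference of the 4 between untreated EpiSCs and LIF/serum ESCs was 0.09, with 3 of 4 above 0. Of all members 33 of 77 were above 0, and of all genes 48.8%.

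LIF/BMP-4 ESCs were compared with LIF/serum ESCs. Here too 0 of 77 members were 1.5-fold apart, with a background of 13.2% of all genes and 8.04% of the other abundant genes. The members' median difference was -0.03 and their SD over genes 0.13. Rpl30 (-0.37), Rpl12 (-0.26), Rpl4 (-0.23) and Rplp0 (-0.22) were at the low end. Rps15 (0.22) and Rps3 (0.22) were near the high end. Rpl12, part of the stalk base, had 1925 FPKM in LIF/BMP-4 ESCs, against 2307 FPKM in LIF/serum ESCs. The sum of Rpl30 and Gm12191 had 1343 FPKM in LIF/BMP-4 ESCs, against 1329 FPKM, so its difference was not seen in the locus as a whole.

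BMP-4 over 1.5 h left the members' values within a narrow band. Of 77 members, 0 were 1.5-fold apart from untreated EpiSCs, where the background was 1.18% of all genes and 1.36% of the other abundant genes, so a count of 0 is near what that share of 77 genes would give. The median difference was -0.01 and the SD over genes 0.05. Rps21 was highest at 0.11 and Rpl30 lowest at -0.31. The sum of Rpl30 and Gm12191 was 1284 FPKM after 1.5 h and 1251 FPKM in untreated EpiSCs, so the Rpl30 difference was not seen in the locus as a whole. Next to Rpl30, the lowest was Rps27 at -0.12, a zinc finger protein of the small subunit, with 606 FPKM after 1.5 h and 660 FPKM in untreated EpiSCs.

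After 24 h of BMP-4 the members lay slightly below their untreated values, as did the other abundant genes. Again 0 of 77 were 1.5-fold apart, with a background of 3.94% of all genes and 2.38% of the other abundant genes. The median difference was -0.07, and 68 of 77 members were below 0. Among the other abundant genes the median was -0.05 with 620 of 881 below 0, and among all genes it was 0.00 with 5527 of 11006 below 0. The lowest members were Rps27 (-0.23), Rpl34 (-0.21), Rpl29 (-0.17), Rps27a (-0.16) and Rpl36 (-0.16), and the highest was Rpl26 at 0.12. Rpl26 and Rpl34 depend on the split of their loci. Rpl26 with Gm15772 summed to 2625 FPKM in untreated EpiSCs and 2659 FPKM after 24 h. Rpl34 with Rpl34-ps1 summed to 1134 FPKM in untreated EpiSCs and 1060 FPKM after 24 h. Rps27 had 660 FPKM in untreated EpiSCs, 606 FPKM after 1.5 h and 563 FPKM after 24 h.

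The 24 h library set against the 1.5 h library gave the same picture with the shared 24 h library. There 0 of 77 members were 1.5-fold apart, with a background of 3.35% of all genes and 2.16% of the other abundant genes. The median difference was -0.06, with 68 of 77 below 0, and the extremes were Rpl34 at -0.30 and Rpl30 at 0.23. Both share their position with another row. Rpl30 with Gm12191 summed to 1284 FPKM after 1.5 h and 1226 FPKM after 24 h, so its rise was not seen in the locus as a whole. Rpl34 with Rpl34-ps1 summed to 1199 FPKM after 1.5 h and 1060 FPKM after 24 h. The small and the large subunit had medians of -0.06 and -0.07. The 24 h library was also the deepest, at about 13.4 M reads, and the part of depth in these small differences was not tested.

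Among 8 paralogues, which the choice by symbol left out, 2 had deposited bounds that did not overlap between untreated EpiSCs and either ESC library, Rpl10l and Rpl39l (5.53% of all genes were 1.5-fold apart with bounds apart against LIF/serum ESCs, and 5.51% against LIF/BMP-4 ESCs). Both were at or near 0 in EpiSCs. For Rpl39l the deposited bounds in untreated EpiSCs were 0 to 0, as its value was, so any ESC lower bound above 0 lay apart from them. Rpl36al, Rpl22l1 and Rpl7l1 stayed within 1.5-fold between untreated EpiSCs and LIF/serum ESCs with overlapping bounds. Rpl22l1 and Rpl7l1 were near that limit, each with a log2(FPKM + 1) difference of -0.56, while the members' differences ran from -0.40 to 0.41. The summed level of the 8 was 1509, 1553 and 1448 FPKM in untreated, 1.5 h and 24 h EpiSCs, 2043 FPKM in LIF/BMP-4 ESCs and 2090 FPKM in LIF/serum ESCs. This was 10.6% to 11.1% of the FPKM of the pairs in EpiSCs and 14.5% and 14.7% in ESCs. The sum includes Rps4l, annotated as a pseudogene, with 101 FPKM in untreated EpiSCs and 333 FPKM in LIF/serum ESCs. Rps27l alone of the 8 was higher in every EpiSC library than in either ESC library.

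Rpl10l (mm9 chromosome 12, 67384366 to 67385388), an intronless copy of Rpl10 that replaces it in mouse male meiosis, stood at 0.115, 0.207 and 0.170 FPKM in EpiSCs. It stood at 312 FPKM (167 to 457, deposited bounds) in LIF/BMP-4 ESCs and 276 FPKM (146 to 406) in LIF/serum ESCs. The upper bounds in EpiSCs were at most 0.693 FPKM. The difference of log2(FPKM + 1), untreated EpiSC minus ESC, was -8.13 against LIF/BMP-4 ESCs and -7.95 against LIF/serum ESCs. Rpl10l thus held 0.0078% to 0.015% of the Rpl10 and Rpl10l sum in EpiSCs, against 19.8% in LIF/BMP-4 ESCs and 16.8% in LIF/serum ESCs. The coding sequences are 84.8% identical and share no stretch of 36 bases, so reads of that length or longer from the coding part can be told apart from those of Rpl10. Of the 36-base stretches of the Rpl10l transcript, 18.1% also lie in annotated transcripts of other genes, and 0% in other rows of the gene table. Some of its reads may therefore be shared.

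Rpl39l (chromosome 16, 10170321 to 10175004), a copy of Rpl39 known from mouse testis, was listed at 0 in all 3 EpiSC libraries. It stood at 129 FPKM (54.4 to 204) in LIF/BMP-4 ESCs and 67.7 FPKM (22.6 to 113) in LIF/serum ESCs, with overlapping bounds, and no fold is given against 0. Its share of the pair was 3.21% and 1.90% in these ESCs, since Rpl39 itself is among the most abundant members. The coding sequences, from GENCODE M21 on GRCm38, are shown to make clear how the 2 messages can be told apart. Each has 156 bases and 23 positions that differ, in capitals, and 2.48% of the 36-base stretches of Rpl39l also occur in Rpl39.
Rpl39l: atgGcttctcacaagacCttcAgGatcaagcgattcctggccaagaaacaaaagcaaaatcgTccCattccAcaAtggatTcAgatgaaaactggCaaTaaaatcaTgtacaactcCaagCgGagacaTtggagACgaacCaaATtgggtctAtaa
Rpl39: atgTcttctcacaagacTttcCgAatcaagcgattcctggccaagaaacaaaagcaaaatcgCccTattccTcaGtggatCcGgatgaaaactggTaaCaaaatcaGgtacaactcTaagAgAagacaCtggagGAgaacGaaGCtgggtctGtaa
The differences are spread over the coding sequence, with the longest shared stretch in their 5′ part.

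Rpl3l (chromosome 17, 24864774 to 24873094), the striated muscle form of Rpl3, was listed at 0 in the EpiSCs and stood at 2.60 FPKM (0 to 5.998) in LIF/BMP-4 ESCs and 0.784 FPKM (0 to 2.25) in LIF/serum ESCs. Its bounds reach 0 in both, so its presence is not firm at this depth. Rps4l (chromosome 6, 147995938 to 148392874), annotated in GENCODE M21 as a transcribed processed pseudogene of Rps4x, stood at 101, 102 and 98.7 FPKM in EpiSCs, against 329 and 333 FPKM in LIF/BMP-4 and LIF/serum ESCs. Its difference of log2(FPKM + 1) between untreated EpiSCs and LIF/serum ESCs was -1.71, and it held 14.1% to 14.8% of the sum with Rps4x in EpiSCs, against 33.8% and 33.5% in ESCs. Its bounds overlapped narrowly, with an upper bound of 174 FPKM in untreated EpiSCs and a lower bound of 164 FPKM in LIF/serum ESCs.

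The other paralogues were expressed in both states. Rps27l, a p53 target in human and mouse cells, was the 1 paralogue with higher values in EpiSCs, at 597, 609 and 560 FPKM in untreated, 1.5 h and 24 h EpiSCs, against 380 and 347 FPKM in LIF/BMP-4 and LIF/serum ESCs. Its share of the sum with Rps27 was 47.5%, 50.2% and 49.9% in EpiSCs and 41.5% and 38.4% in ESCs. Rpl22l1, which can take the place of Rpl22 in mouse cells without it, went the other way, with 208, 204 and 209 FPKM in EpiSCs and 247 and 308 FPKM in ESCs. It held 40.3%, 39.3% and 41.9% of its pair in EpiSCs and 46.0% and 52.3% in ESCs, so in LIF/serum ESCs it passed Rpl22, which had 281 FPKM there. Bounds overlapped for Rps27l and Rpl22l1. Reads of Rpl22l1 may be shared, since 60.3% of its 36-base stretches also lie in the row Gm15421.

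Rpl7l1, a relative of Rpl7, had 122, 123 and 114 FPKM in EpiSCs and 171 and 180 FPKM in ESCs. Rpl36al had 481, 515 and 465 FPKM in EpiSCs and 472 and 578 FPKM in ESCs, so its groups overlapped. For all 8 paralogues the difference between 24 h and untreated EpiSCs lay within 0.10 on the log2(FPKM + 1) scale. The canonical partners Rpl3, Rpl7, Rpl10, Rpl22, Rpl36a, Rpl39, Rps4x and Rps27 stayed within 1.5-fold in all 6 comparisons, as every member did.

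**Figure D5:**
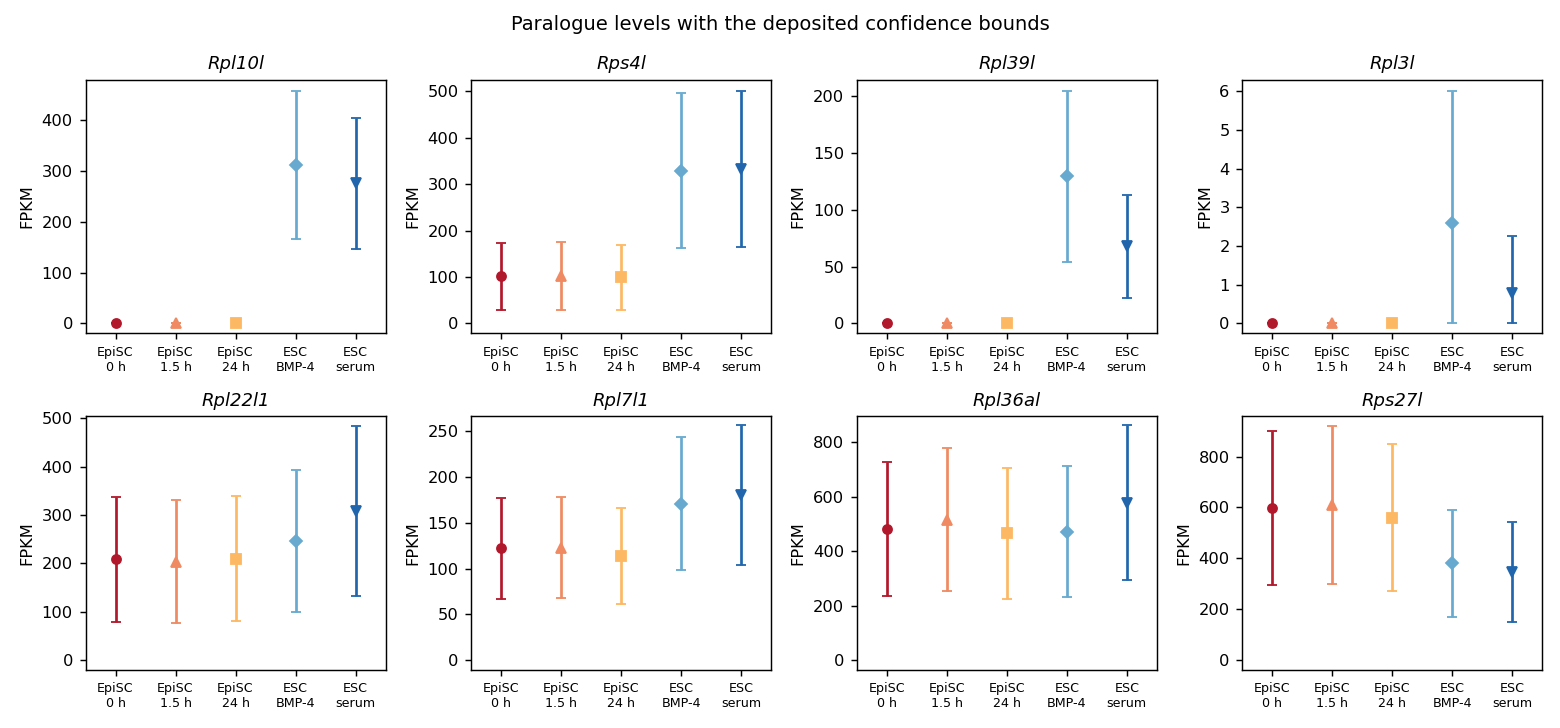
FPKM of the 8 paralogues in each library with the deposited 95% bounds as error bars, on a separate linear axis for each gene. Rpl10l, Rpl39l and Rpl3l lie at or near 0 in the 3 EpiSC libraries, Rps4l lies at about 100 FPKM in EpiSCs against about 330 FPKM in ESCs, and Rps27l has higher values in EpiSCs with overlapping bounds.

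Genes that make or run the ribosome were described from 6 lists written with earlier results of these data known. Between untreated EpiSCs and LIF/serum ESCs the ribosome biogenesis factors had a median difference of -0.33, with 44 of 50 below 0. Of all genes 51.1% were below 0, with a median of -0.01, and of the other abundant genes 62.6%, with a median of -0.12. Of the 50 factors, 0 were at least 1.5-fold higher (20.3% of all genes were). At least 1.5-fold lower were 9 of them, a share near that of all genes (18%). None had bounds apart. Noc3l, a nucleolar factor of early 60S assembly, had 26.8 FPKM in untreated EpiSCs, against 55.1 FPKM. Tcof1, the treacle protein of ribosomal DNA transcription, had 31.9 FPKM in untreated EpiSCs, against 57.0 FPKM. Gar1, of the pseudouridylation complex, was the highest at 0.49. Against LIF/BMP-4 ESCs the list's median was -0.14, with 0 higher and 2 lower (19.6% and 18% of all genes). LIF/BMP-4 ESCs minus LIF/serum ESCs gave a median of -0.26 with 0 past 1.5-fold either way (8.15% of all genes higher and 5.08% lower).

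The RNA polymerase I machinery, which makes the ribosomal RNA precursor, had 7 of 19 genes at least 1.5-fold lower in untreated EpiSCs than in LIF/serum ESCs and 0 higher (18% and 20.3% of all genes), with a median of -0.42. The list includes Polr2e, Polr2h and Polr2k, subunits that other RNA polymerases also use. Against LIF/BMP-4 ESCs 4 were lower and 0 higher (18% and 19.6% of all genes), with a median of -0.29. Znrd1, a polymerase I subunit, had 35.4 FPKM in untreated EpiSCs, against 81.9 FPKM, and Rrn3, the initiation factor TIF-IA, 68.9 FPKM in untreated EpiSCs, against 114 FPKM. Polr1e was the highest at 0.41. LIF/BMP-4 ESCs had 1 of 19 lower than LIF/serum ESCs, and 0 higher (5.08% and 8.15% of all genes).

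The list of translation factors whose messages also carry TOP motifs, which holds other genes such as Vim and Hnrnpa1 too, differed little. Untreated EpiSCs had 1 of 22 listed genes higher and 2 lower than LIF/serum ESCs (20.3% and 18% of all genes), with a median of -0.06. The 1 higher gene was Vim, which is no translation factor. Against LIF/BMP-4 ESCs 0 were higher and 1 lower (19.6% and 18% of all genes), with a median of 0.03. Eif4a2, an RNA helicase of initiation, had 103 FPKM in untreated EpiSCs, against 190 FPKM. Vim, the intermediate filament gene vimentin, which is on the list for its TOP start, had 461, 420 and 447 FPKM in untreated, 1.5 h and 24 h EpiSCs, against 322 FPKM in LIF/BMP-4 ESCs and 119 FPKM in LIF/serum ESCs. Its difference of log2(FPKM + 1) in untreated EpiSCs was 0.52 against LIF/BMP-4 ESCs, with overlapping bounds, and 1.94 against LIF/serum ESCs, and LIF/BMP-4 ESCs minus LIF/serum ESCs gave 1.43. Eef2, the translocation factor, had 1423 FPKM in untreated EpiSCs, against 983 FPKM in LIF/serum ESCs.

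Of the initiation factors, 2 of 22 were lower in untreated EpiSCs than in LIF/serum ESCs and 0 higher (18% and 20.3% of all genes), with a median of -0.12. The median against LIF/BMP-4 ESCs was 0.08, with 1 lower and 1 higher (18% and 19.6% of all genes). Eif2s2, the beta subunit of eIF2, stood at 370 FPKM in untreated EpiSCs, against 959 FPKM in LIF/serum ESCs, with bounds apart.

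The list of mTOR, LARP1 and MYC regulators had 1 of 21 genes at least 1.5-fold above LIF/serum ESCs in untreated EpiSCs and 0 below (20.3% and 18% of all genes), with a median of -0.15. Set against LIF/BMP-4 ESCs, 2 were above and 0 below (19.6% and 18% of all genes), with a median of -0.16. The gene above LIF/serum ESCs was Mxd4, a partner of MAX that opposes MYC, with 26.8 FPKM in untreated EpiSCs, against 1.45 FPKM. Myc had 38.9, 33.2 and 33.7 FPKM in untreated, 1.5 h and 24 h EpiSCs and 16.9 and 28.3 FPKM in LIF/BMP-4 and LIF/serum ESCs. Larp1, which binds TOP messages, had 62.2 FPKM in untreated EpiSCs, against 56.3 FPKM in LIF/serum ESCs. Import factors and dedicated chaperones of ribosomal proteins had 0 of 12 past 1.5-fold in either direction, with a median of -0.23 against LIF/serum ESCs and -0.06 against LIF/BMP-4 ESCs.

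In the BMP-4 series of EpiSCs the lists' medians at 1.5 h lay between -0.03 and 0.01. At 24 h they lay between -0.13 and 0.06, and the biogenesis factors were the lowest, with 49 of 50 genes below their untreated value. Of all genes 5527 of 11006 lay below it, of the other abundant genes 620 of 881, and of the initiation factors 20 of 22. Among the biogenesis factors 0 were past 1.5-fold, where 3.94% of all genes were. Of all the listed genes, the initiation factor Eif3j1 had the largest BMP-4 difference, with 0.135 FPKM in untreated EpiSCs, 60.1 FPKM after 1.5 h and 0.0997 FPKM after 24 h, against 0.147 and 0.154 FPKM in LIF/BMP-4 and LIF/serum ESCs. Its log2(FPKM + 1) difference was 5.75 between 1.5 h and untreated EpiSCs and -5.79 between 24 h and 1.5 h, with bounds apart. The table lists its copy Eif3j2 at the same position, with 99.5, 38.2 and 93.9 FPKM in the EpiSCs in the same order, and the sum of both was 99.7, 98.3 and 94.0 FPKM, so the difference was not seen in the locus as a whole.

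Fau, which encodes a small subunit protein fused to a ubiquitin-like protein and falls outside the choice by symbol, was within 1.5-fold in all 6 comparisons too, with 488, 514 and 482 FPKM in EpiSCs and 525 and 565 FPKM in ESCs. Gnb2l1, the ribosome-bound scaffold RACK1, had 2648, 2608 and 2444 FPKM in EpiSCs and 2830 and 2702 FPKM in ESCs.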

How the data were processed

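Poly(A) RNA of 5 mouse libraries, 1 per group, was selected with oligo-dT, decapped, fragmented and made into directional libraries, per the labels' protocols. The values used are FPKM per gene that the authors deposited, with a lower and an upper 95% bound and a status per library, per the file headers. TopHat, Cufflinks, Picard and SAMtools and the mm9 build are named in the submitters' processing notes. The annotation, the scaling between libraries, the read length and the handling of reads with several matches are not stated in the labels or headers. They bear on the family, since many members have processed pseudogenes.

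Gene sets and lists were chosen with earlier results of these data known. Members were found by symbol (77, status OK in all libraries). Differences of log2(FPKM + 1) were taken for genes averaging 1 FPKM or more (11011 genes, less those of a status other than OK in a library compared), a scale that understates changes of low genes. Folds are ratios of FPKM + 1. Genes at least 1.5-fold apart were counted beside all genes and beside 883 other genes averaging 100 FPKM or more. Bounds are called apart where they do not overlap. With 1 library a group there is no test and the bounds are no spread between cultures. Shares are sums of FPKM over the total. Depth was estimated from the size of 1 read's step in values under 0.5 FPKM of genes with transcripts over 1500 nt, and is approximate. Named genes are the 5 highest and 5 lowest members by mean, up to 6 at either end of a comparison, canonical and X-linked members, all paralogues, Fau and Gnb2l1, and up to 4 at either end of a list. Genes named for their range over EpiSCs and ESCs, for their variation or for their start window fall outside this rule where it does not reach them, and were picked after their values were seen, as were the mitochondrial genes. Items withheld from this account are not reported here, which leaves 75 members drawn by name. Of 150 listed genes 147 were in the table.

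Coding sequences were aligned with Biopython 1.88 from GENCODE M21 on GRCm38, and start windows come from RefSeq promoters on GRCm38.p6. Python 3.11.15, pandas 2.3.3, NumPy 2.4.6 and SciPy 1.17.1 were used, and the counting of differences was tested on simulated data. Small nucleolar RNA rows lie within introns of 21 members (30 rows, 16 of them at 0 in all libraries) and are no members. Alternatives were another pseudocount (0.1), filter (20 FPKM or none), fold (2), scaling, and sums with pseudogene rows or with rows at the same locus. Rows summed at the same locus were added after the data were seen.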

Additional observations from a re-analysis of the deposited data

How the results depend on the processing

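No paired analysis was possible because the design has 1 library a group, and leaving out a library would leave a group empty. Of 214 recomputed values, 210 stayed within the tolerance set for them (0.1 for medians on the log2 scale, the propagated bounds for shares, 1.5 times for counts). Many of the 214 could not change, so this count is no measure of stability. All members averaged over 20 FPKM and none was at 0 or of a status other than OK, so filters and exclusions removed none. A 1.5-fold count of 0 fixes the counts at 2-fold and with bounds apart, and most paralogue shares gained no row. The counts of members at least 1.5-fold higher or lower were 0 in all 6 comparisons under each alternative, including 2-fold, a pseudocount of 0.1, no filter, both rescalings and sums with pseudogene rows or rows at the same locus. Leaving small RNA and predicted rows out of the total raised the share beyond the propagated bounds in 3 libraries, to 21.2% in 24 h EpiSCs, 20.5% in LIF/BMP-4 ESCs and 19.8% in LIF/serum ESCs, beside 21.5% and 21.6% in untreated and 1.5 h EpiSCs, and EpiSCs stayed above ESCs. Scaling libraries to the same total moved the members' median for untreated EpiSCs against LIF/serum ESCs to a median log2 difference of 0.0916, from below 0, and that of all genes to 0.10, as it must where totals differ. The same scaling gave 0.05 against LIF/BMP-4 ESCs and 0.04 between the ESC libraries, so the sign of these 3 medians depends on scaling. The median at 24 h lay between -0.07 and -0.06 under all alternatives run. The alternatives run for paralogue shares only added rows to the canonical gene. A row to add was found for Rps27 alone, Rps27rt with at most 2.97 FPKM. The other shares could not move, so the dependence of paralogue shares on processing was hardly tested.

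Differences between cultures were not measured. The lowest member had about 406 coding reads in the shallowest library, and a median member about 4563. What the authors did with reads that fit several genes is not stated, and 37 members have over 50% of their sequence elsewhere.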

Other observations

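The mitochondrial ribosomal protein genes, which encode the separate ribosome of that organelle, were set beside the cytoplasmic ones as a list picked after seeing these data. All 77 listed genes passed the filter, with mean levels from 2.73 to 236 FPKM. In untreated EpiSCs 3 were at least 1.5-fold higher and 13 at least 1.5-fold lower than in LIF/serum ESCs (20.3% and 18% of all genes), with a median difference of -0.23, and none had bounds apart. Against LIF/BMP-4 ESCs 6 were higher and 10 lower (19.6% and 18% of all genes), with a median of -0.07. Mrpl15 stood at 26.5, 25.0 and 22.2 FPKM in untreated, 1.5 h and 24 h EpiSCs and at 44.5 and 49.0 FPKM in LIF/BMP-4 and LIF/serum ESCs. Mrpl23 went the other way, with 42.8, 36.7 and 43.5 FPKM in EpiSCs and 25.2 and 23.6 FPKM in ESCs. Mrps6 had 122, 114 and 129 FPKM in EpiSCs and 63.2 and 78.9 FPKM in ESCs. Between the ESC libraries 0 were higher and 2 lower in LIF/BMP-4 ESCs (8.15% and 5.08% of all genes). At 1.5 h and at 24 h of BMP-4, 0 of 77 were 1.5-fold apart from untreated EpiSCs in either direction, with medians of -0.03 and -0.05.

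Of the 30 rows of small nucleolar RNAs in introns of ribosomal protein genes, 16 were listed at 0 in all libraries and 24 in at least 1. Snord32a and Snord33 were listed at 0 in some libraries and at high values in others, while their host Rpl13a varied little. Rpl13a stood at 1349, 1314 and 1237 FPKM in untreated, 1.5 h and 24 h EpiSCs and at 1564 and 1429 FPKM in LIF/BMP-4 and LIF/serum ESCs. Snord33, in Rpl13a, was listed at 0, 3279 and 8084 FPKM in untreated, 1.5 h and 24 h EpiSCs, at 4031 FPKM in LIF/BMP-4 ESCs and at 0 in LIF/serum ESCs. Snord32a, in the same host, was listed at 0 in untreated and 1.5 h EpiSCs, 4068 FPKM after 24 h, 0 in LIF/BMP-4 ESCs and 6390 FPKM in LIF/serum ESCs. The cause was not tested.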
